A study of Mus musculus with 4 samples.

Results

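Regional identity transcription factors are the DNA-binding proteins, mostly of the homeodomain, LIM-homeodomain, T-box, zinc finger and nuclear receptor families, that set up the divisions of the embryonic forebrain and stay on in the adult neurons descended from each division. In the hypothalamus they mark nuclei much as an address does: *Nr5a1* and *Fezf1* belong to the ventromedial nucleus, *Sim1* to the paraventricular nucleus, *Tbx3* and *Prdm12* to neurons of the arcuate nucleus, *Rax* to tanycytes, the glia lining the third ventricle, and *Foxb1* and *Lmx1b* to the mammillary and subthalamic regions. The *Dlx* genes instead mark GABAergic neurons across the ventral forebrain. The 41 genes described here were taken by name from the 31053 features of the count matrices, and all 41 were present.

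They were read in single nuclei from punches of the hypothalamic arcuate nucleus (ARC) of wildtype male C57BL/6J mice, 10 weeks of age. DOCA-salt mice carried a 50 mg subcutaneous pellet of the mineralocorticoid deoxycorticosterone acetate (DOCA) and could drink 0.15 M NaCl for 3 weeks, and Sham mice underwent sham surgery. Each group had 2 pools of 2 mice, built from 4 punches in DOCA-salt 1 and Sham 1 and from 3 in DOCA-salt 2 and Sham 2. A pool is 1 library and 1 replicate, so no value below separates mice, and values listed by library follow the order DOCA-salt 1, DOCA-salt 2, Sham 1 and Sham 2.

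After filtering, 10307, 18907, 2203 and 7759 nuclei were kept, with 21255137 to 69382757 unique molecular identifiers (UMIs, 1 for each captured RNA molecule) per library. Sham 1 stood apart, with the fewest nuclei and a median of 8215 UMIs per nucleus against 2401 to 3278 in the other libraries. Of its 53257230 deposited UMIs 21255137 remained, and 66.1% of its nuclei held UMIs of both neurotransmitter gates used below, against 17.1 to 31.9% elsewhere. Pairs of libraries shared 1 to 44 cell barcodes. In nuclei gated on oligodendrocyte genes, which should lack most of these factors, the summed level of the 41 genes was still 46.4%, 58.0%, 107% and 56.6% of that in all kept nuclei, the Sham 1 value resting on 9 nuclei, and the part of free RNA in the values below was not tested. Levels are given as CPM, the UMIs of a gene per 1000000 UMIs of the nuclei summed, and they are compared between samples or populations and not between genes.

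Most members divided by neurotransmitter class. Nuclei with a UMI of the vesicular glutamate transporter *Slc17a6* and none of the GABA-synthesizing enzymes *Gad1* and *Gad2* (Slc17a6-only) were compared with nuclei of the opposite kind (Gad-only), within each library. Of the 39 members tested, 27 differed at an adjusted p of 0.05 in edgeR's quasi-likelihood test, beside 8.44% of all 14074 genes tested. Of the 27, 9 were higher in Slc17a6-only nuclei, beside 4.98% of genes, and 18 in Gad-only nuclei, beside 3.46%. The median log2 fold change of the members was -0.52 and that of all genes -0.01. *Barhl1* and *Emx2* had too few UMIs to be tested. The Slc17a6-only sums came from 1344, 1934, 90 and 666 nuclei, so those of Sham 1 were the least exact. Without a library block 6 of 37 members tested were called, beside 80 of 13501 genes. After every nucleus was thinned to 1000 UMIs 17 of the 29 members still tested were called, beside 296 of 11279 genes, and 4 lost their call on testing (*Tbx3*, *Hmx2*, *Hmx3* and *Lhx1*).

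The ventromedial pair leaned furthest to the glutamatergic side. *Nr5a1*, the nuclear receptor SF-1 needed to form the ventromedial nucleus, was at 29.3, 64.0, 28.2 and 49.0 CPM in Slc17a6-only nuclei and at 2.71, 7.17, 6.29 and 3.32 CPM in Gad-only nuclei. The Slc17a6-only level was higher in 4 of 4 libraries and the ranges did not overlap, and the log2 fold change was 3.30 ± 0.19 (SE, n = 4 libraries, edgeR adjusted p = 4.94e-06). *Fezf1*, a zinc finger repressor of the same nucleus, was at 65.8, 125, 46.9 and 103 CPM against 5.04, 14.0, 13.7 and 7.85 CPM, a log2 fold change of 3.28 ± 0.21 (SE, edgeR adjusted p = 1.11e-05).

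Other members higher in Slc17a6-only nuclei came from the lateral, paraventricular and posterior groups. *Lmx1b*, a LIM-homeodomain factor of the subthalamic and mammillary region, had a log2 fold change of 2.96 ± 0.54 (SE), with 18.0, 0, 6.26 and 1.41 CPM in Slc17a6-only nuclei and no UMI there in DOCA-salt 2. Without DOCA-salt 1 its fold change was 1.32 and it was no longer called (edgeR adjusted p = 0.343). *Nr4a2*, an orphan nuclear receptor, was higher by 1.97 ± 0.41, the paraventricular *Sim1* by 1.87 ± 0.26, the helix-loop-helix factor *Ebf3* by 1.82 ± 0.24 and the LIM-homeodomain factor *Lhx9* by 1.59 ± 0.28 (log2, SE). By library, *Sim1* was at 4.59, 47.2, 25.03 and 12.7 CPM in Slc17a6-only and 0.756, 8.91, 13.3 and 5.58 CPM in Gad-only nuclei, so the class difference stood in every library although the level in DOCA-salt 1 was low in both. *Ebf3* was at 3.19, 18.7, 1.56 and 5.29 CPM against 1.20, 4.88, 1.16 and 1.21 CPM, and *Nr4a2* at 72.8, 1.68, 37.5 and 16.2 CPM against 8.01, 2.16, 11.6 and 5.21 CPM, the DOCA-salt 2 values of *Nr4a2* being low and in the other order. The tuberal factors *Sox14* and *Nkx2-1*, the homeodomain protein that founds the ventral hypothalamus, were higher by 1.73 ± 0.23 and 1.02 ± 0.14. *Nkx2-1* was nevertheless well represented in both classes, at 37.5 to 54.3 CPM in Slc17a6-only and 16.3 to 34.2 CPM in Gad-only nuclei. *Nr4a2* lost its call without Sham 1 (edgeR adjusted p = 0.065) or Sham 2 (edgeR adjusted p = 0.0882), and *Lhx9* without Sham 2 (edgeR adjusted p = 0.093). *Irx3* and *Irx5*, of the posterior group, had fold changes of 1.79 ± 0.53 and 1.77 ± 0.64 without passing the test, and that of *Irx5* was -0.15 without DOCA-salt 1.

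The forebrain GABAergic group lay on the other side, with 8 of its 10 members called and all 8 higher in Gad-only nuclei. *Dlx1* was at 62.7, 80.7, 101 and 126 CPM in Gad-only nuclei and at 8.38, 6.85, 25.03 and 13.0 CPM in Slc17a6-only nuclei (log2 fold change -3.10 ± 0.16, SE, edgeR adjusted p = 2.43e-06). *Dlx2*, *Dlx5* and *Dlx6*, its relatives, gave -3.02 ± 0.20, -3.28 ± 0.24 and -2.78 ± 0.26. *Lhx6* and *Lhx8*, LIM-homeodomain factors of neurons born in the medial ganglionic eminence and its neighbours, gave -3.50 ± 0.29 and -3.78 ± 0.46, and *Lhx8* had no UMI in the Slc17a6-only nuclei of either Sham library. *Lhx6* was at 1.40, 0.457, 1.56 and 0.353 CPM in Slc17a6-only and 19.7, 3.47, 10.3 and 5.66 CPM in Gad-only nuclei, and *Dlx5* at 1.20, 1.52, 3.13 and 1.76 CPM against 18.1, 15.7, 14.4 and 11.02 CPM, without overlap of the ranges for either. *Meis2*, at 13.0, 7.31, 1.56 and 4.58 CPM against 211, 45.3, 6.29 and 5.43 CPM, leaned to the Gad-only side by a wide margin in the DOCA-salt libraries and by little in Sham 2. Its fold change was -3.13 ± 0.36, and that of *Zic1*, a zinc finger protein of the septum and anterior hypothalamus, was -0.94 ± 0.15. *Foxp2* did not divide by class (0.07 ± 0.13) and the striatal factor *Bcl11b* varied among libraries (-1.04 ± 0.45, edgeR adjusted p = 0.192).

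Arcuate and anterior factors were also mostly higher in Gad-only nuclei. *Prdm12* gave -2.89 ± 0.42, *Gsx1* -1.63 ± 0.38, *Hmx3* -1.58 ± 0.26, *Hmx2* -1.32 ± 0.22, *Isl1* -1.24 ± 0.14, *Tbx3* -1.15 ± 0.12 and *Onecut2* -0.76 ± 0.11 (log2, SE). Of the 648 *Prdm12* UMIs in all kept nuclei, 367 came from DOCA-salt 2. *Six6*, *Lhx1* and *Six3*, homeodomain factors of the anterior and suprachiasmatic hypothalamus, gave -2.09 ± 0.28, -1.40 ± 0.32 and -1.005 ± 0.118. *Tbx3* was at 28.7, 1.68, 14.1 and 29.6 CPM in Slc17a6-only and 73.6, 2.65, 27.3 and 63.9 CPM in Gad-only nuclei, higher in the latter in 4 of 4 libraries. *Isl1* was at 56.5, 32.6, 15.6 and 55.4 CPM against 185, 62.6, 61.5 and 106 CPM and *Six6* at 3.39, 3.05, 12.5 and 13.4 CPM against 18.7, 27.8, 25.9 and 30.9 CPM, the smaller *Six6* gaps being those of the Sham libraries. *Otp*, which serves neuroendocrine neurons of both classes, did not divide in 1 direction: it was at 20.8 against 101 CPM (Slc17a6-only against Gad-only) in DOCA-salt 1 and at 125 against 40.2 CPM in DOCA-salt 2. The tanycyte genes *Rax* and *Lhx2* did not pass the test. Leaving out 1 library ended 4 of these calls: *Gsx1* without DOCA-salt 1, Sham 1 or Sham 2 (edgeR adjusted p = 0.113, 0.0534 and 0.151), *Lhx1* without DOCA-salt 2, Sham 1 or Sham 2 (0.169, 0.0798 and 0.0873), *Hmx2* without Sham 2 (0.0568) and *Prdm12* without DOCA-salt 2 (0.0508).

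**Figure D1:**
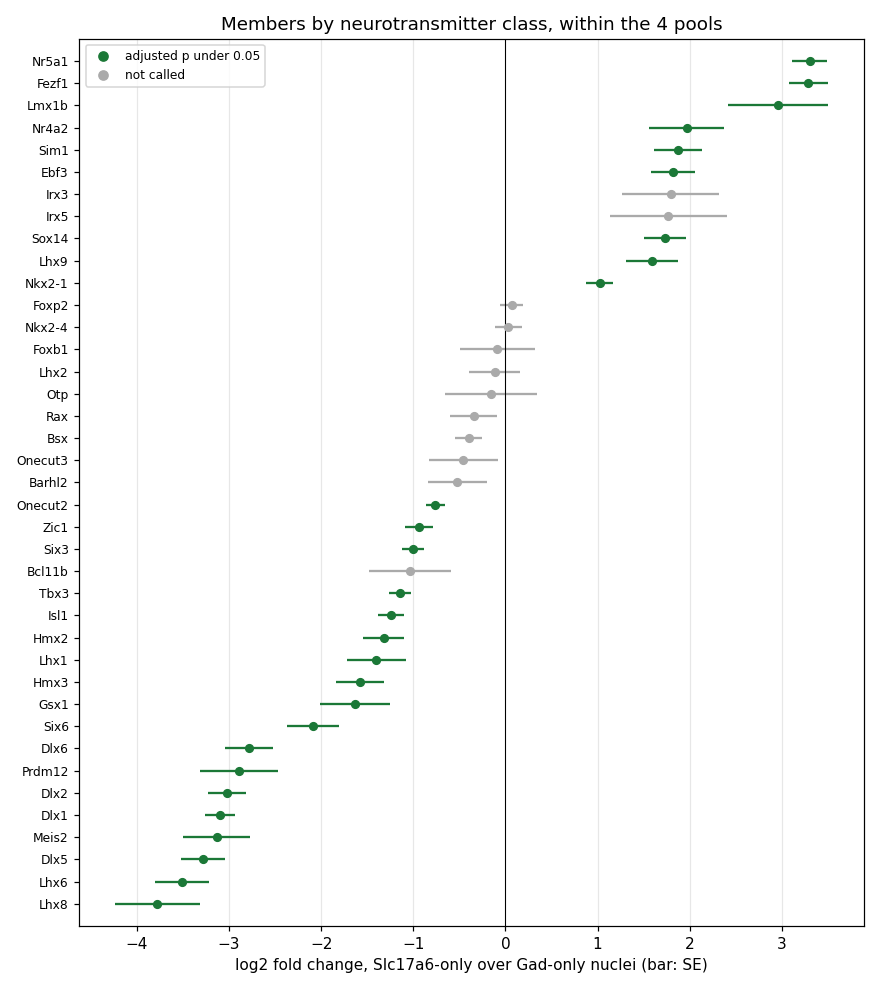
Log2 fold change of the 39 tested members between Slc17a6-only and Gad-only nuclei, with the library as a block (points: edgeR estimate; bars: SE; green: adjusted p under 0.05). *Nr5a1* at 3.30 and *Fezf1* at 3.28 stand at the glutamatergic end and *Lhx8* at -3.78 and *Lhx6* at -3.50 at the GABAergic end.

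Among further regional factors listed for comparison, *Foxa1* (3.44 ± 0.60), of the subthalamic and posterior hypothalamus, was higher in Slc17a6-only nuclei together with *Nhlh2* (1.80 ± 0.19) and *Lhx5* (1.08 ± 0.21). *Foxa1* was mostly a DOCA-salt 1 signal. In nuclei with at least 2 *Slc17a6* UMIs and 4 times those of *Gad1* and *Gad2* together, it had 85, 0, 3 and 2 UMIs by library. *Sp9* (-2.69 ± 0.32), *Lef1* (-1.45 ± 0.28) and *Pou3f3* (-0.56 ± 0.10) were higher in Gad-only nuclei (log2 fold change, SE).

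The sequence before the start site is shown for 4 of the called genes, *Dlx2* and *Lhx6* from the Gad-only side and *Sox14* and *Nkx2-1* from the Slc17a6-only side, chosen because no annotated exon overlaps the window. Each line holds the 250 bases before a RefSeq start on GRCm38.p6, all on the minus strand and written 5′ to 3′. Capitals mark CCAAT and CACGTG on either strand (CCAAT reads ATTGG on the other). *Dlx2* lies at chr2:71546755-71547004, *Lhx6* at chr2:36105409-36105658, *Sox14* at chr9:99876171-99876420 and *Nkx2-1* at chr12:56536909-56537158.
Dlx2: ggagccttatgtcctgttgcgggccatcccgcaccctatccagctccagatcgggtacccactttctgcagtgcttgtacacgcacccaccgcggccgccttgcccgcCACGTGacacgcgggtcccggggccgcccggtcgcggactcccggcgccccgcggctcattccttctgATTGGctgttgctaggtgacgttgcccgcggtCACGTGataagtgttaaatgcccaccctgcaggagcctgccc
Lhx6: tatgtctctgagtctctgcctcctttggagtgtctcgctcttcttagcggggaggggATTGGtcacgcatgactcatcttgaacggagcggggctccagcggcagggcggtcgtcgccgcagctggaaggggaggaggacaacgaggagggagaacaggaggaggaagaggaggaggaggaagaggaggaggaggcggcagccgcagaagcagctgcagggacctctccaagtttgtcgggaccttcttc
Sox14: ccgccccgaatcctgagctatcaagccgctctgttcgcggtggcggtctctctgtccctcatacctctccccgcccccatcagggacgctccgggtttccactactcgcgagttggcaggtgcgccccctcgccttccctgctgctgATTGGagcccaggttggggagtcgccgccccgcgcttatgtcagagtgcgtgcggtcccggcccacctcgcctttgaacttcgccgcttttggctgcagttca
Nkx2-1: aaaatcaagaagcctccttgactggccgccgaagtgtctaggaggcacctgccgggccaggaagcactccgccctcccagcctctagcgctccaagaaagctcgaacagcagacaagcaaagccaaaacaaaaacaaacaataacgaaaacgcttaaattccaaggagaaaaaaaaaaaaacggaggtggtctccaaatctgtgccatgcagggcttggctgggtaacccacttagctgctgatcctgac

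CCAAT was found once each in *Dlx2*, *Lhx6* and *Sox14*, CACGTG 2 times in *Dlx2*, and neither in the *Nkx2-1* window. Of all 32851 windows of this length 33.8% held CCAAT and 6.02% CACGTG, and the homeodomain core TAATTN, found in none of the 4, was in 24.9%. The promoter table matched 31 of the 41 members, 36 windows in all, of which 47.2% held CCAAT, 5.56% CACGTG and 22.2% TAATTN. Some members are neighbours in the genome: on GRCm38 9.43 kb separate *Dlx1* from *Dlx2* on chromosome 2, 9.24 kb *Dlx6* from *Dlx5* on chromosome 6, 3.85 kb *Hmx3* from *Hmx2* on chromosome 7 and 556 kb *Irx3* from *Irx5* on chromosome 8.

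Nuclei rich in the RNA of 1 neuropeptide showed which factors accompany which neuron. A nucleus was counted as rich in a peptide when it held at least 5 UMIs of it and at least 10 times its mean share in the library, and libraries with at least 20 such nuclei are given. These gates were added after the data had been seen, and the ratios are descriptions.

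*Agrp* neurons of the arcuate nucleus, which drive feeding, carried *Otp*. Leaving aside DOCA-salt 2, with only 2 such nuclei, its levels there were 418, 211 and 334 CPM, against 64.1, 58.0 and 56.9 CPM in the other nuclei. *Tbx3* was at 154, 113 and 133 CPM against 62.7, 23.4 and 51.5 CPM. Both were higher in all 3 libraries, as were *Six6*, *Isl1* and *Bsx*, a homeodomain factor known to act in *Agrp* neurons.

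*Pomc* neurons, their satiety counterparts, were set apart by *Prdm12*, at 45.0, 17.1, 36.9 and 45.1 CPM against 1.28, 5.26, 3.15 and 2.12 CPM in the other nuclei of the 4 libraries. In DOCA-salt 2, however, only 3 of the 367 *Prdm12* UMIs lay in *Pomc*-rich nuclei. *Tbx3* was at 204, 62.8, 134 and 217 CPM against 62.3, 2.59, 23.5 and 49.4 CPM. *Nkx2-1*, *Isl1*, *Six3* and *Six6* were higher in these nuclei in 4 of 4 libraries as well.

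*Ghrh* neurons, which release growth hormone-releasing hormone, carried the homeodomain factor *Gsx1* at 43.9, 39.5 and 50.4 CPM against 4.67, 1.94 and 3.74 CPM, Sham 1 having too few of them. In *Tac2* nuclei, which make neurokinin B, *Nr4a2* was at 146, 0, 80.7 and 88.4 CPM against 26.2, 1.96, 17.1 and 7.82 CPM. The DOCA-salt 2 *Tac2* nuclei, 228 of them, thus held no *Nr4a2* UMI and only 3 of *Tbx3*, and so differed from the *Tac2* nuclei of the other 3 libraries.

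*Sst* nuclei, which make somatostatin, resembled *Agrp* nuclei in their *Otp*, at 396, 266, 157 and 306 CPM against 66.95, 68.3, 59.7 and 58.0 CPM. *Tbx3*, *Isl1*, *Bsx* and *Six6* were higher in them in 4 of 4 libraries too. The peptide gates were not exclusive, so a nucleus rich in both *Agrp* and *Sst* counted in both sets. The part of such nuclei in this likeness was not tested.

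Factors of other nuclei followed their own peptides. *Sim1* in *Trh* nuclei was at 128, 117 and 124 CPM in the last 3 libraries, against 18.5, 18.4 and 7.50 CPM, while the 28 *Trh* nuclei of DOCA-salt 1 held a single *Sim1* UMI. *Onecut2* in the same nuclei was at 205, 144 and 167 CPM in those 3 libraries and at 0 in DOCA-salt 1. In *Avp* nuclei *Lhx1* was at 66.5, 47.4 and 33.5 CPM against 13.7, 13.4 and 8.53 CPM (DOCA-salt 2, Sham 1, Sham 2), and *Six3*, *Six6* and *Zic1* were also higher in 3 of 3 libraries. *Oxt* nuclei, read in DOCA-salt 2 and Sham 2, carried *Sim1* at 122 and 34.2 CPM against 20.4 and 9.79 CPM and *Otp* at 319.6 and 96.3 CPM against 70.1 and 62.7 CPM.

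The lateral hypothalamic peptides could be read in DOCA-salt 2 alone. *Lhx9* was at 85.6 CPM in its 232 *Hcrt* (orexin) nuclei and at 2.42 CPM in its other nuclei, 35.4 times lower. In the tuberal set *Nkx2-1* reached 150.2 CPM in its 408 *Pmch* (melanin-concentrating hormone) nuclei and at 22.8 CPM elsewhere.

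**Figure D2:**
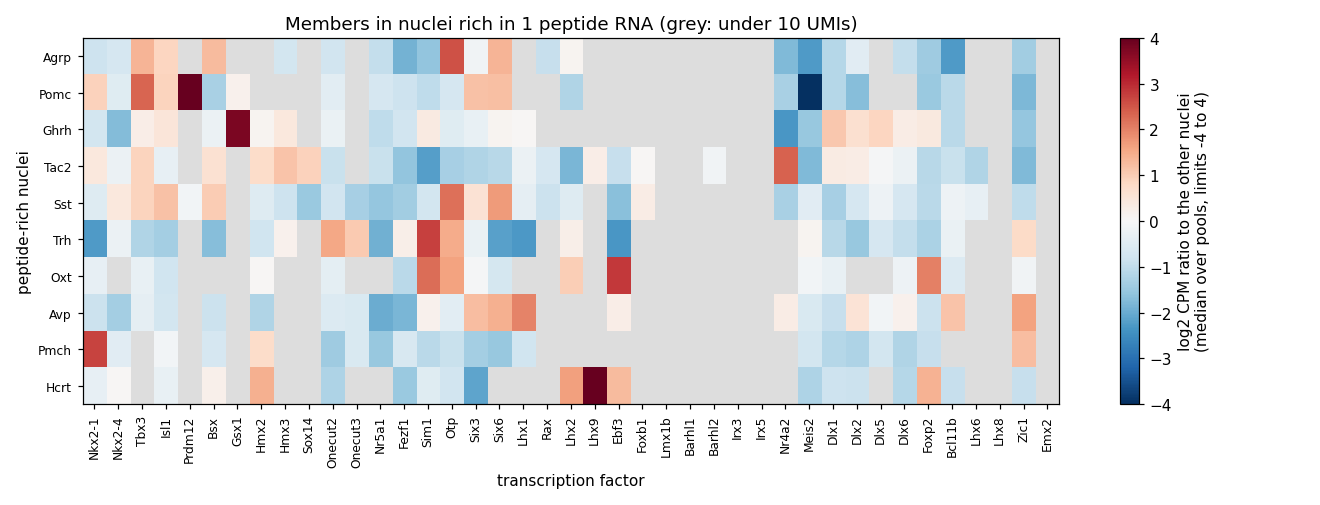
Log2 ratio of each member's CPM in nuclei rich in 1 peptide RNA (rows) to its CPM in the other nuclei of the same library (colour: median over libraries with at least 20 such nuclei, limited to -4 and 4; grey: under 10 UMIs). *Prdm12* in *Pomc*, *Gsx1* in *Ghrh*, *Nr4a2* in *Tac2*, *Otp* in *Agrp* and *Sst*, *Sim1* in *Trh* and *Oxt*, *Ebf3* in *Oxt*, *Nkx2-1* in *Pmch* and *Lhx9* in *Hcrt* nuclei are among the darkest red cells.

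Factors of 1 region were detected together in single nuclei. Of nuclei with a UMI of *Nr5a1*, 31.6%, 41.1%, 37.1% and 44.7% also held *Fezf1*, against 4.56%, 8.66%, 18.5% and 6.66% of nuclei without *Nr5a1*. *Otp* was found in 57.9%, 51.3% and 53.5% of *Sim1* nuclei in the last 3 libraries, against 10.99%, 31.7% and 16.6% of nuclei without *Sim1*, and in DOCA-salt 1 in 18.3% (95% exact interval 10.6 to 28.4%) against 15.3%. *Dlx1* was found in 39.6%, 36.0%, 61.4% and 58.0% of *Dlx2* nuclei against 10.2%, 14.0%, 35.0% and 22.5% of the rest, a gap present in every library. These shares are not thinned to equal depth, and nuclei with a UMI of 1 factor tend to be the deeper ones.

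Posterior and forebrain pairs followed the library. *Irx5* was in 32.6% of *Irx3* nuclei of DOCA-salt 1, in 15.9% and 5.33% of those of the Sham libraries and in 0 of 63 of DOCA-salt 2, which allows up to 5.69% (exact interval). *Lhx6* was in 30.7%, 5.26%, 28.9% and 28.6% of *Lhx8* nuclei. The CPM of *Irx5* and *Lhx6* were themselves 9.12-fold and 4.29-fold higher in DOCA-salt 1 than in DOCA-salt 2. For both pairs, less pairing was therefore not told apart from less detection. *Bcl11b* accompanied *Meis2* in 56.5% of *Meis2* nuclei in DOCA-salt 1 but in 9.77% in DOCA-salt 2, 20% in Sham 1 (18 of 90) and 12.4% in Sham 2, and the shares without *Meis2* were 15.1%, 5.80%, 21.1% and 6.11%.

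Levels in all kept nuclei differed widely between pools of the same group. Between DOCA-salt 1 and DOCA-salt 2, 28 of 41 members differed by 2-fold or more, beside 12.8% of the 17650 genes with at least 20 UMIs, and between Sham 1 and Sham 2 10 did, beside 6.66%. The median absolute log2 ratio was 1.51 for the members and 0.34 for all genes in the DOCA-salt pair, and 0.57 and 0.19 in the Sham pair. Of the 28, 20 were higher in DOCA-salt 1 and 8 in DOCA-salt 2. In summed nuclei, fewer cells of a kind and less RNA per cell cannot be told apart.

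**Figure D3:**
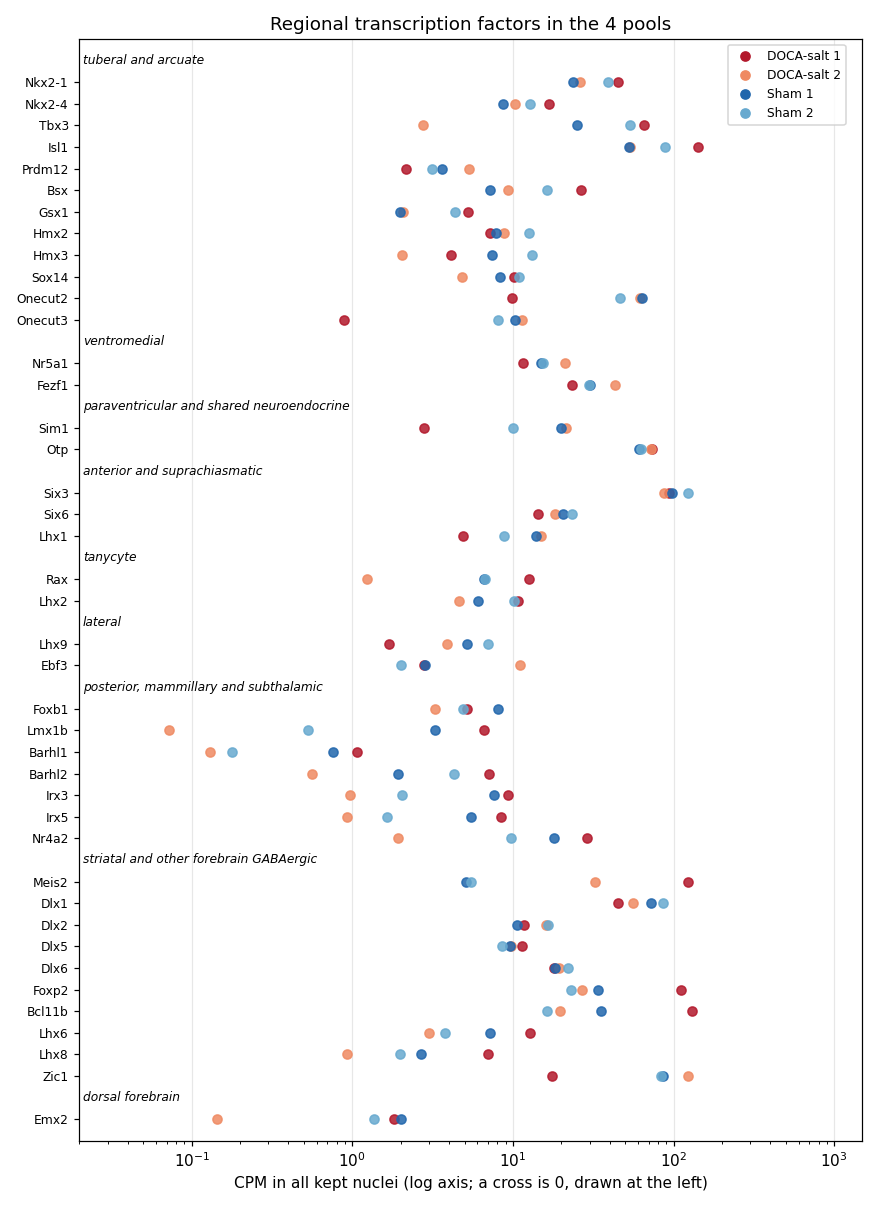
CPM of the 41 members in all kept nuclei of the 4 libraries (log axis; red and orange: DOCA-salt 1 and 2; dark and light blue: Sham 1 and 2), grouped by region. *Tbx3* spans 2.74 to 65.2 CPM and *Lmx1b* 0.0721 to 6.62 CPM, while *Otp* stays between 60.8 and 73.9 CPM.

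Summed over region groups, the 12 tuberal and arcuate members came to 334, 199, 221 and 308 CPM, the 7 posterior members to 66.4, 7.84, 45.2 and 23.2 CPM and the 10 forebrain GABAergic members to 488, 308, 281 and 267 CPM. The first includes *Onecut2* and *Onecut3*, 6.32-fold and 12.9-fold higher in DOCA-salt 2 than in DOCA-salt 1. In the posterior sum *Nr4a2* gave 1079 of 2487, 133 of 544, 385 of 961 and 382 of 917 UMIs. This gene was also high in the *Tac2* nuclei of DOCA-salt 1, Sham 1 and Sham 2 above, so the sum is not posterior tissue alone. The forebrain sum includes *Foxp2*, which did not divide by class. It also includes *Zic1*, 7.07-fold higher in DOCA-salt 2, and *Dlx1*, *Dlx2* and *Dlx6*, also higher there. These 3 sums were nevertheless all highest in DOCA-salt 1. In DOCA-salt 1 *Meis2*, *Bcl11b* and *Foxp2* gave 4612, 4844 and 4187 of the 18262 UMIs of the forebrain sum. The ventromedial pair, at 34.8, 64.1, 44.9 and 45.1 CPM, and the lateral pair, at 4.46, 15, 7.998 and 8.96 CPM, were lowest there.

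Several arcuate factors were lower in DOCA-salt 2 than in DOCA-salt 1, but *Prdm12*, also arcuate, was 2.4-fold higher in DOCA-salt 2. *Tbx3* was at 65.2, 2.74, 25.03 and 53.3 CPM, so that DOCA-salt 1 stood 23.8-fold above DOCA-salt 2, and both Sham pools lay between them. *Isl1* was at 141, 53.9, 53.1 and 88.2 CPM, *Bsx* at 26.5, 9.28, 7.15 and 16.3 CPM and *Gsx1* at 5.29, 2.08, 1.98 and 4.35 CPM. For these last 3, DOCA-salt 1 and Sham 2 were the high pools in their groups. *Agrp* and *Pomc* RNA went the same way as *Tbx3*, at 209, 1.57, 52.1 and 86.2 CPM and at 348, 38.4, 174 and 303 CPM.

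Other tuberal and arcuate factors spread less or ran the other way. *Nkx2-1* was at 45.1, 26.3, 23.8 and 38.9 CPM and its relative *Nkx2-4* at 16.8, 10.3, 8.66 and 12.8 CPM. *Sox14* was at 10.1, 4.83, 8.28 and 10.98 CPM, *Hmx2* at 7.16, 8.84, 7.81 and 12.5 CPM and *Prdm12* at 2.16, 5.29, 3.62 and 3.11 CPM. *Onecut2* and *Onecut3*, cut-homeodomain factors, were lower in DOCA-salt 1 than in the other pools: *Onecut2* was at 9.83, 62.1, 64.0 and 46.3 CPM and *Onecut3* at 0.881, 11.4, 10.3 and 8.12 CPM.

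Factors of the paraventricular and suprachiasmatic nuclei and of the septum were low in DOCA-salt 1, apart from *Otp* and *Six3*. *Sim1* was at 2.80, 21.3, 19.995 and 9.99 CPM, 7.61-fold higher in DOCA-salt 2 than in DOCA-salt 1. *Lhx1* was at 4.89, 14.9, 13.9 and 8.85 CPM and *Zic1* at 17.4, 123, 86.4 and 83.6 CPM. *Avp* and *Oxt* RNA, made by paraventricular and neighbouring neurons, were also lowest there, at 9.80, 507, 80.0 and 192 CPM and at 8.95, 910.4, 178 and 420.2 CPM. *Ebf3* was high in DOCA-salt 2 alone (2.78, 11.1, 2.82 and 2.00 CPM). That library held 803 CPM of *Hcrt* and 2849 CPM of *Pmch* against at most 13.0 and 43.9 CPM in the others. It also held the most *Oxt*, and *Ebf3* stood among the high ratios in *Oxt* nuclei above. *Lhx9* was at 1.68, 3.89, 5.18 and 6.96 CPM and so was highest in Sham 2, where *Hcrt* was at 2.48 CPM.

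The ventromedial pair and the broad anterior factors were steadier. *Nr5a1* was at 11.5, 21.0, 14.9 and 15.4 CPM and *Fezf1* at 23.3, 43.1, 30.0 and 29.7 CPM, both highest in DOCA-salt 2 and nearly equal in the Sham pools. *Otp* was at 73.9, 72.4, 60.8 and 62.9 CPM, *Six3* at 93.4, 87.1, 98.2 and 122 CPM and *Six6* at 14.3, 18.3, 20.4 and 23.5 CPM. None of these 5 differed by 2-fold within a group.

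Tanycyte and posterior factors were highest in DOCA-salt 1 and lowest in DOCA-salt 2, except *Foxb1*, highest in Sham 1. *Rax* was at 12.6, 1.24, 6.59 and 6.73 CPM and *Lhx2*, also found in neurons, at 10.7, 4.61, 6.07 and 10.1 CPM. Of *Rax* UMIs, 23.0%, 18.6%, 2.86% and 14.7% lay in nuclei with no UMI of *Slc17a6*, *Gad1* or *Gad2*. These nuclei held 3657477 of 37442185, 5396471 of 69382757, 206414 of 21255137 and 1947000 of 39528518 UMIs of all kept nuclei. *Rax* was therefore enriched in them in each library, Sham 1 resting on 69 such nuclei. Most *Rax* counts still came from nuclei passing a neurotransmitter gate, and the part of free RNA in these counts was not tested. *Nr4a2* was at 28.8, 1.92, 18.1 and 9.66 CPM, *Irx3* at 9.27, 0.966, 7.57 and 2.02 CPM and *Foxb1* at 5.18, 3.27, 8.05 and 4.88 CPM. *Lmx1b* was at 6.62, 0.0721, 3.29 and 0.531 CPM, the DOCA-salt ratio of 91.9 having a counting interval of 38.9 to 286. The other posterior members, *Irx5*, *Barhl1* and *Barhl2*, ranged from 0.130 to 8.41 CPM. In the Sham pair *Lmx1b*, *Barhl1*, *Irx3* and *Irx5* were all over 3-fold higher in Sham 1.

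Several striatal and other forebrain GABAergic factors were high in DOCA-salt 1. *Bcl11b* was at 129, 19.7, 35.1 and 16.4 CPM, *Foxp2* at 112, 27.0, 34.1 and 23.0 CPM, *Lhx6* at 12.8, 2.98, 7.20 and 3.79 CPM and *Lhx8* at 7.02, 0.922, 2.68 and 1.97 CPM. The summed level of 6 markers of striatal projection neurons (such as *Ppp1r1b*, *Adora2a* and *Drd1*) was 444 CPM in DOCA-salt 1 and 100.4 to 119 CPM in the other libraries, and none of the 6 was at 0 in any of them. The part of other striatal cells in these values was not tested. In DOCA-salt 1 the 16.1% of nuclei with UMIs of at least 2 of these markers held 79.6% of *Meis2*, 65.3% of *Bcl11b* and 50.2% of *Foxp2* UMIs but 28.9% of all UMIs. *Lhx6* and *Lhx8*, with 26.5% and 25.9% of their UMIs there, did not share this. In DOCA-salt 1 17.41% of *Foxp2* UMIs lay in Slc17a6-only nuclei, which held 5011760 of its 37442185 UMIs. Gad-only nuclei, with 15863309 UMIs, held 47.03% of *Foxp2* UMIs. The *Foxp2* level of this library was thus not confined to the GABAergic side. In DOCA-salt 2, Sham 1 and Sham 2, 4.5%, 13.8% and 6.24% of nuclei passed the same gate. Their medians were 8375, 14651.5 and 10753 UMIs, against 2534, 8215 and 3278 in all kept nuclei of these libraries. *Emx2*, of the dorsal forebrain, was at 1.82, 0.144, 2.02 and 1.37 CPM.

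The *Dlx* genes differed by less than 2-fold within groups. *Dlx1* and *Dlx6* overlap the antisense genes *Dlx1as* and *Dlx6os1*. *Dlx1* was at 44.9, 55.9, 71.9 and 85.9 CPM, *Dlx2* at 11.8, 16.1, 10.5 and 16.4 CPM, *Dlx5* at 11.4, 9.79, 9.55 and 8.50 CPM and *Dlx6* at 18.0, 19.5, 18.3 and 22.1 CPM.

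**Figure D4:**
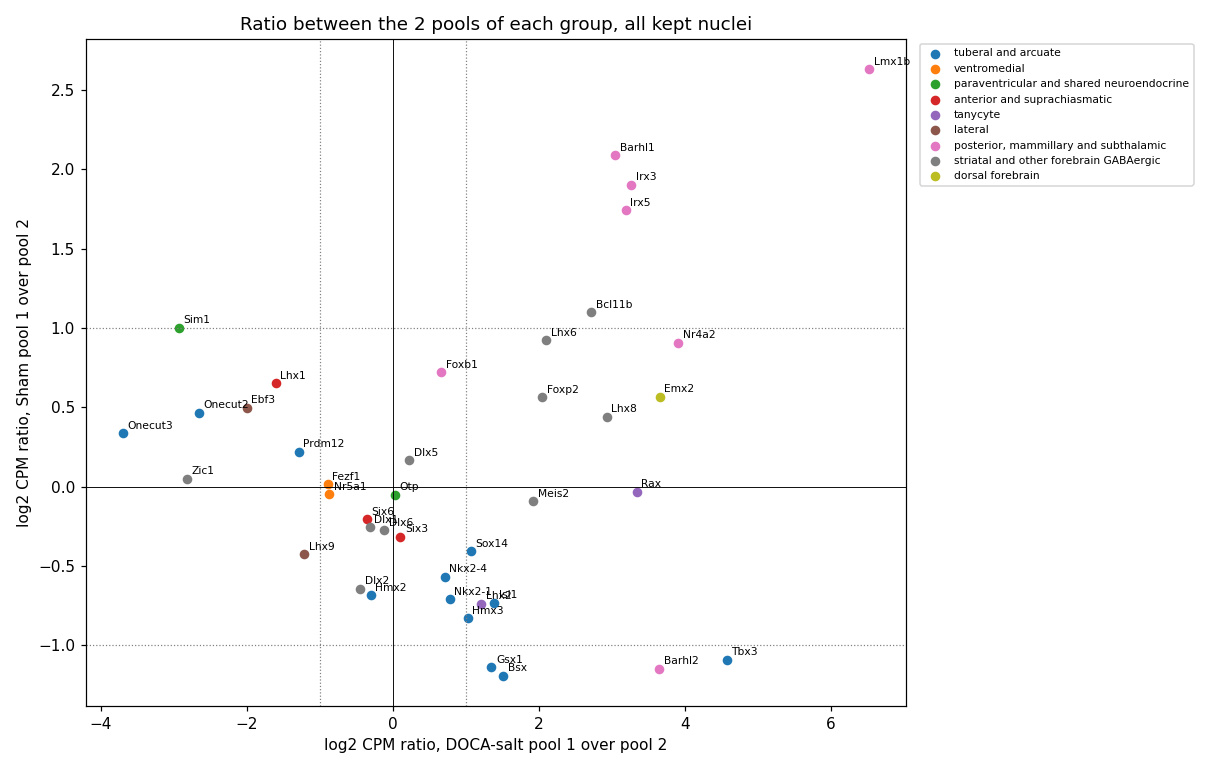
Log2 CPM ratio of each member between the 2 pools of a group, DOCA-salt (x axis) and Sham (y axis), in all kept nuclei; dotted lines mark 2-fold. *Lmx1b* lies furthest out (91.9-fold and 6.20-fold), *Tbx3* is 23.8-fold higher in DOCA-salt 1 but 2.13-fold lower in Sham 1, and *Otp* sits near the origin.

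Shares of nuclei were also computed with each nucleus thinned to 1000 UMIs, which left out the 1978, 3603, 12 and 925 nuclei with fewer. *Tbx3* was then expected in 6.16%, 0.236%, 2.60% and 4.99% of nuclei, *Sim1* in 0.299%, 1.74%, 1.85% and 0.995% and *Meis2* in 8.05%, 2.58%, 0.588% and 0.582%, against unthinned *Tbx3* shares of 16.1%, 0.904%, 17.6% and 17.3%. In oligodendrocyte-gated nuclei the thinned *Tbx3* share was 8.50%, 0.304%, 1.90% and 2.11%, on 7, 1, 1 and 8 UMIs, so that the shares of the DOCA-salt libraries did not exceed this background. The same held for *Meis2* in Sham 2 (1.28% in oligodendrocyte-gated nuclei). At this depth 18 to 23 members reached 1% of nuclei in a library.

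Against this spread within groups, no member differed between DOCA-salt and Sham mice after adjustment. In all kept nuclei 0 of 41 members and 0 of 16564 genes (0.0%) were called by edgeR, and likewise 0 of 15625 (0.0%) in *Slc17a6*-positive and 0 of 16232 (0.0%) in *Gad1*- or *Gad2*-positive nuclei. At an unadjusted p under 0.05 there were 4 members beside 8.45% of genes, 8 beside 10.0%, and 4 beside 8.34%. The members' median log2 fold change was 0.06, 0.01 and -0.13, and that of all genes 0.03, 0.02 and 0.03. DESeq2 called 2, 3 and 2 members, beside 107, 106 and 93 of the same genes. These p-values measure only the spread between pools.

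*Meis2*, a TALE homeodomain factor of striatal, olfactory and other GABAergic neurons, had the smallest p of the members in each population. Its levels were 123, 32.5, 5.13 and 5.46 CPM, a log2 fold change of 3.81 ± 0.60 (SE, n = 2 against 2, edgeR adjusted p = 0.572, DESeq2 adjusted p = 3.62e-12). In *Slc17a6*-positive nuclei it was at 57.3, 23.0, 4.89 and 5.26 CPM (2.92 ± 0.42) and in *Gad1*- or *Gad2*-positive nuclei at 150.0, 36.6, 5.29 and 5.38 CPM (4.06 ± 0.64). The groups did not overlap in any of these populations. Outside the nuclei with striatal markers *Meis2* was at 35.4, 32.8, 5.51 and 5.71 CPM, so that the DOCA-salt pools came close to each other. There the log2 fold change was 2.55 with an edgeR adjusted p of 0.0494. In DOCA-salt 1 the nuclei with striatal markers were deeper, at a median of 4663 UMIs against 2401 in all kept nuclei. Whether shallower striatal nuclei remained was not tested. In DOCA-salt 2, Sham 1 and Sham 2 the nuclei with striatal markers held 11.26%, 14.68% and 10.65% of *Meis2* UMIs. They held 11.96%, 20.58% and 14.46% of all UMIs, so in these libraries the gate was not enriched for *Meis2*. Whether *Meis2* differed by treatment or by the tissue punched was not tested. Over the 12 alternatives in all kept nuclei its log2 fold change ran from 2.55 to 4.45 and its adjusted p from 3.62e-12 to 0.65, with 6 calls.

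*Hmx3*, a homeodomain factor of the tuberal hypothalamus, was at 4.14, 2.03, 7.43 and 13.2 CPM, lower in both DOCA-salt pools (log2 fold change -1.81 ± 0.42, SE, edgeR adjusted p = 0.572, DESeq2 adjusted p = 0.00959). *Dlx1* (-0.68 ± 0.19) and *Lhx9* (-1.14 ± 0.46) were the other members under an unadjusted p of 0.05 in all kept nuclei. In *Slc17a6*-positive nuclei *Six3*, *Six6*, *Dlx6* and *Ebf3* joined them, *Six6* at 10.8, 10.8, 19.0 and 19.4 CPM. Of these *Slc17a6*-positive nuclei, 1757 of 3101, 3687 of 5621, 1456 of 1546 and 2476 of 3142 also held *Gad1* or *Gad2* UMIs. The gate thus mixed the classes, with a larger share of such nuclei in the Sham pools. Leaving out DOCA-salt 1 raised the edgeR calls to 7, 14 and 10 of 41 members in the 3 populations, and those among all genes to 771 of 16929, 1552 of 16188 and 1112 of 16817. Leaving out DOCA-salt 2 raised them to 10, 12 and 9 members and to 414 of 17023, 383 of 15799 and 331 of 16558 genes. The lone pool left was then assumed to vary as the Sham pools did.

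In all kept nuclei 3 members (*Meis2*, *Dlx5* and *Otp*) lay above both Sham pools in both DOCA-salt pools, where 26.1% of genes did, and 5 (*Lhx9*, *Dlx1*, *Hmx3*, *Six6* and *Six3*) lay below, where 16.2% did. The difference of the DOCA-salt effect between Slc17a6-only and Gad-only nuclei was called for 0 of 39 members and 0.0% of 14074 genes. At an unadjusted p under 0.05 there were 7 members beside 2.62% of genes.

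**Figure D5:**
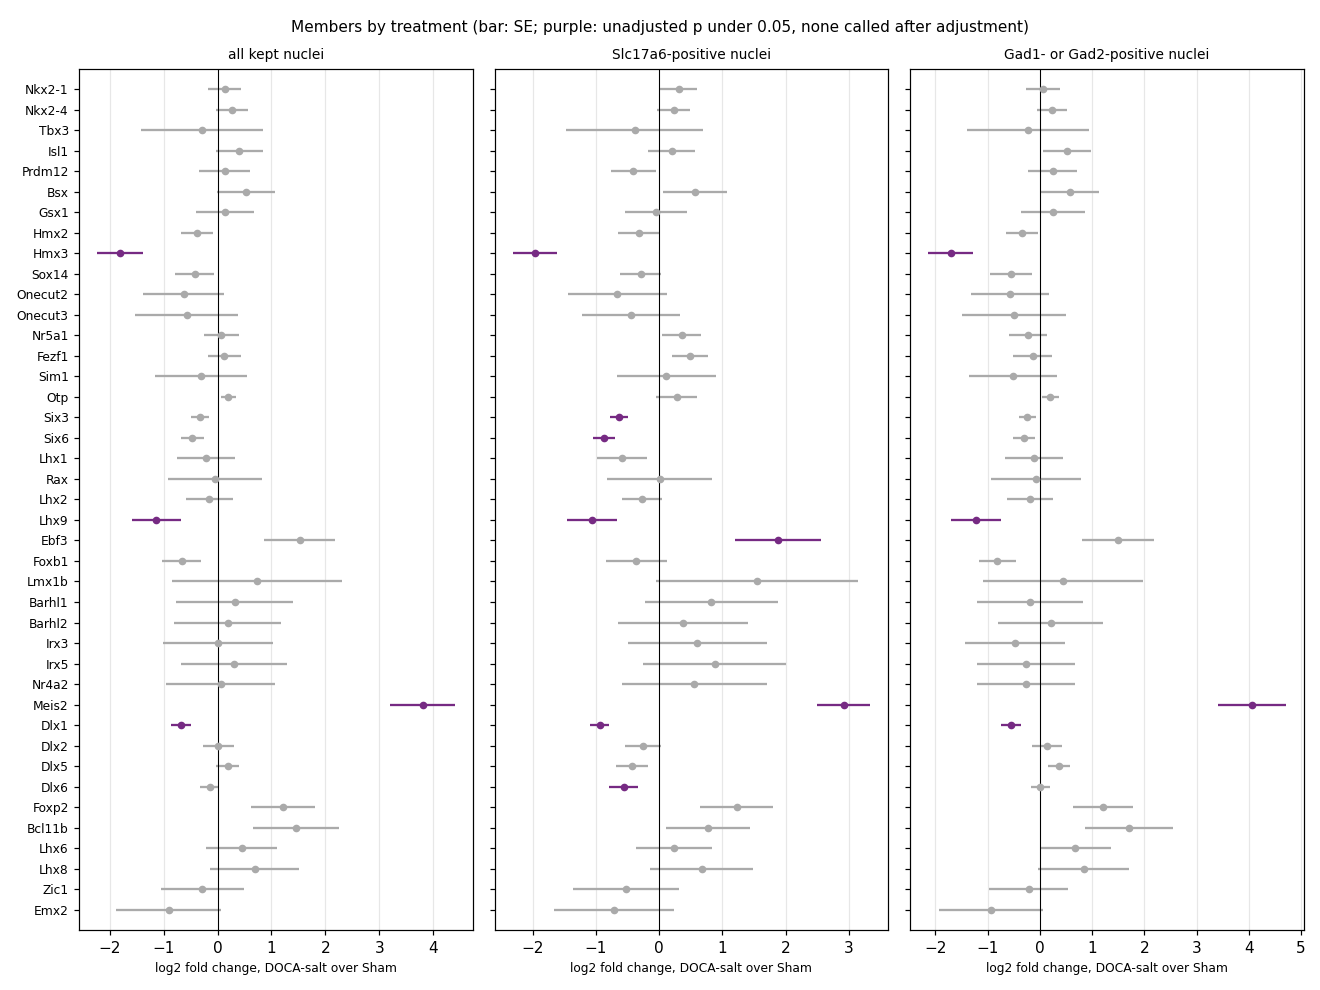
Log2 fold change of each member in DOCA-salt over Sham pools in 3 populations of nuclei (points: edgeR estimate; bars: SE; purple: unadjusted p under 0.05). *Meis2* lies furthest right at 3.81, 2.92 and 4.06 and *Hmx3* furthest left at -1.81, -1.97 and -1.71, and none passed the adjusted limit.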

How the data were processed

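Nuclei from ARC punches were profiled with the 10x Genomics 3′ v3 kit. The authors aligned reads to GRCm38/mm10 with Cell Ranger 3.0.1 and deposited UMI counts per gene and barcode. Here barcodes with over 200 and under 7000 genes, under 25000 UMIs and under 15% mitochondrial UMIs were kept. No doublet caller was run. Nuclei were gated on 1 UMI of *Slc17a6* or of *Gad1* or *Gad2*, counts were summed per library and population, and sums were tested with edgeR 4.0.16 (quasi-likelihood, TMM, filterByExpr, Benjamini-Hochberg over all genes, R 4.3.3), after a test on simulated data. The simulated counts had the same spread for all genes, so that test does not show the power of comparing DOCA-salt with Sham pools. DESeq2 1.42.0 was an alternative. SE is the fold change over the root of F. Intervals are exact at 95% and cover counting error only. The pools held different mice, and nothing beyond the pool number pairs them. The members and gene lists were chosen with earlier results of these data known. The members named with values are all those called, the 3 of most UMIs in each region group of over 3, and every member of smaller groups; members named outside this rule, the peptide gates, and the promoters and motifs shown were chosen after their values were seen. Positions come from GENCODE vM21 and promoters from RefSeq, both on GRCm38. Results for some of the comparison factors and markers are not reported here.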

Additional observations from a re-analysis of the deposited data

How the results depend on the processing

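For DOCA-salt against Sham, edgeR called 0 genes in all kept, *Slc17a6*-positive and *Gad1*- or *Gad2*-positive nuclei. In that order DESeq2 called 107, 106 and 93 genes (2, 3 and 2 members), no filter on low counts 142, 455 and 152 genes (2, 10 and 4 members) and thinning 2, 10 and 2 genes. Without nuclei with striatal markers 1 gene was called in all kept and 1 in Gad nuclei, in each case the member *Meis2*. In *Slc17a6*-positive nuclei the exclusive and the dominant gate called 1 gene each. Leaving out 1 library gave 1 to 771, 1 to 1552 and 13 to 1112 genes and 0 to 10, 0 to 14 and 1 to 10 members, the high ends without a DOCA-salt pool, the cause not being tested. The replicate block called 0 genes and 0 members in each population. Same-numbered pools deviated with r = -0.223 over 16564 genes, which with 2 pools per group cannot show whether the numbers pair them. The crossed pairing as a replicate block called 58, 158 and 17 genes and 2, 4 and 2 members. This pairing and the dominant gates were chosen after seeing the data.

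Between classes no filter called 1868 genes, no library block 80 genes and 6 members, and thinning 296 genes and 17 members. Without 1 library there were 442 to 1583 genes and 22 to 27 members. *Irx5* ranged from -0.15 without DOCA-salt 1 to 2.24 without DOCA-salt 2. Between pools a 3-fold limit left 876 genes and 20 members for DOCA-salt and 475 genes and 4 members for Sham, and a minimum of 100 UMIs left 1265 and 345 genes (27 and 9 members). At 1% of nuclei, Sham 1 had 32 members at 2000 UMIs and 40.0 unthinned, and Sham 2 had 34 unthinned. For single members 486 values kept their side of the threshold, 58 gained a call, 40 lost one and 1 reversed.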
